A study of Mus musculus with 6 samples.

Results

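The unfolded protein response was followed in the mouse hippocampus through 10 of its textbook genes: Hspa5, Hsp90b1, Calr, Pdia4, Sdf2l1, Herpud1, Xbp1, Atf4, Ddit3 and Trib3. They were picked by name, and each symbol was matched to 1 Ensembl identifier among the 52550 genes of the count table. All 10 were among the 17621 genes with enough counts to be tested. RNA came from the hippocampus of male wild-type C57BL/6 J mice that were 8 weeks old when adeno-associated virus (AAV) was injected into the CA1 area on both sides. The mice of the 3 control libraries received AAV with a control shRNA. Those of the 3 libraries labelled L-DL KD received AAV with shRNAs against L-DL, the long isoform of the RNA-binding protein hnRNP DL. The L-DL virus carried 4 shRNAs in a row, each behind an H1 promoter, which is active in most cell types, and a green fluorescent marker behind the CamkIIα promoter, which is active in excitatory neurons. Infected and uninfected cells were not separated, and the control virus was given at a higher titre than the L-DL virus. The labels call the second group a knockdown in the title and a knockout in the description, and call the control group wild type without naming the control virus.

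The lumen of the endoplasmic reticulum (ER) is where secreted and membrane proteins fold. When unfolded proteins build up there, 3 sensors in the ER membrane respond. IRE1 (Ern1) splices the Xbp1 mRNA into its active form, ATF6 is cut to release a transcription factor, and PERK (Eif2ak3) phosphorylates eIF2α, which slows translation in general but raises translation of Atf4. XBP1 and ATF6 raise chaperones and degradation factors of the ER, while ATF4 raises genes of amino acid supply together with Ddit3 (CHOP) and Trib3. Much of this control acts on protein or on splicing outside the nucleus, which a gene count does not measure.

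The promoters of these genes were searched for elements through which ATF6, XBP1 and ATF4 are known to act, and the stretches of the 4 genes that hold such an element before the start of transcription are shown to make these sites visible. The windows ran from 250 bases before to 50 bases after the start (RefSeq, GRCm38.p6), and all 10 genes had 1 window. In the lines that follow, each strand is that of the gene and capitals mark the match.
Hspa5, chr2:34772009-34772059, plus strand: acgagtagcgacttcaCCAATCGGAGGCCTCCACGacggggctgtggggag
Calr, chr8:84847059-84847109, minus strand: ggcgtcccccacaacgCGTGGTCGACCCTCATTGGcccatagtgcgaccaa
Hsp90b1, chr10:86705517-86705672, minus strand: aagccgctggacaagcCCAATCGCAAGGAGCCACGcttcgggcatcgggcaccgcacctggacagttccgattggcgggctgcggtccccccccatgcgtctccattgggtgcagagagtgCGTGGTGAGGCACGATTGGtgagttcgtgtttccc
Herpud1, chr8:94386301-94386403, plus strand: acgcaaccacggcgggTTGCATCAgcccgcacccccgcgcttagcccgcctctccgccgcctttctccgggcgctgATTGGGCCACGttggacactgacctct

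The ER stress response element, searched on both strands as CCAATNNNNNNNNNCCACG, was found in Hspa5, Calr and Hsp90b1, and Hsp90b1 held it at 2 places in opposite orientation. In Hspa5 the match ran from 65 to 47 bases before the start, and in Calr it ran in reverse orientation from 162 to 144 bases before it. Of all 32851 promoter windows, 39 (0.119%) held this element. The ER stress response element II, searched as ATTGGNCCACG, was found in Herpud1 among the 10 genes and in 0.0365% of all windows. The amino acid response element, to which ATF4 binds with partner factors, was searched as TGATGNAA. It was found in Herpud1, 112 to 105 bases before the start, and in Trib3, 14 to 21 bases after the start, and 3.97% of all windows held it. The unfolded protein response element, searched as TGACGTGG, was found in none of the 10 windows and in 0.676% of all windows. Pdia4, Sdf2l1, Xbp1, Atf4 and Ddit3 held none of these letters in their window, which says nothing about elements elsewhere or spelled differently.

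**Figure D1:**
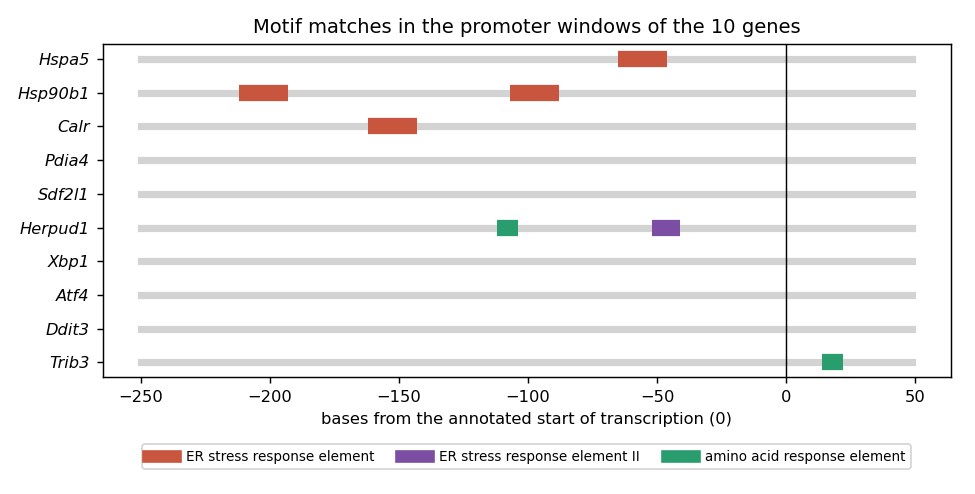
Positions of the motif matches (coloured bars) in the promoter windows of the 10 genes (grey lines), in bases from the annotated start of transcription. Matches of the ER stress response element lie before the start in Hspa5, Hsp90b1 and Calr, and Herpud1 holds both of the other elements before its start.

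Each library held between 16052529 and 17913064 counts on genes. Hnrnpdl, which encodes hnRNP DL, was at 176, 184 and 171 CPM (counts scaled to a common library size by edgeR's TMM method) in control replicates 1 to 3 and at 217, 150 and 173 CPM in the libraries labelled L-DL KD. These groups overlapped, with a log2 fold change of 0.03 (standard error 0.12, adjusted p = 0.898, quasi-likelihood test of edgeR, Benjamini-Hochberg adjustment over all genes), so a lower count of the targeted gene was not detectable. Transcripts of the long isoform were not counted apart from the others. Over all genes, 5379 (30.5%) differed at an adjusted p under 0.05, and the median log2 fold change was 0.01. Neuron and glia markers were present in every library, and those of neurons, microglia, astrocytes and endothelial cells moved with the group. Microglia markers summed to 1440 to 1799 CPM in the controls and 3018 to 3931 CPM in the L-DL KD replicates, with 12 of 12 higher. Neuron markers summed to 9239 to 9814 CPM and 5556 to 6438 CPM, with 11 of 12 lower and Nefl higher. Astrocyte markers summed to 7897 to 8042 CPM and 6143 to 7232 CPM, with 4 of 8 lower and 1 higher. Endothelial markers summed to 311 to 337 CPM and 385 to 470 CPM, with 4 of 8 higher and none lower. In bulk tissue, fewer cells of a type and less RNA per cell cannot be told apart. Choroid plexus markers, which come from tissue next to the hippocampus, differed mainly between single libraries, and 0 of 6 passed the test between the groups. They summed to 7049 CPM in control replicate 3 and 7792 CPM in L-DL KD replicate 1. In the other 4 libraries they summed to 2687 and 800 CPM in the controls and 351 and 203 CPM in the L-DL KD replicates. Plasma and B cell markers summed to 312 to 2113 CPM in the controls and 1172 to 3367 CPM in the L-DL KD replicates, with 1 of 11 higher. The part of these other cell types in the values of the 10 genes, and of the other pathway genes below, was not tested.

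At the level of mRNA in the control hippocampus, these genes spanned from abundant chaperones to a gene near the lower limit of detection. On the per-length scale (TPM, from the exon length of each gene), Calr was highest at 805 ± 66.1 TPM (SD, n = 3), followed by Hspa5 at 540 ± 80.1 TPM and Hsp90b1 at 249 ± 45.9 TPM. The ranges of these 3 genes did not overlap each other, and the lowest control library of Hsp90b1 (207 TPM) lay below the highest of Pdia4 (210.5 TPM) and above all others that follow. Next came Atf4 (183 ± 13.8 TPM), Pdia4 (176 ± 31.6 TPM), Xbp1 (152 ± 13.6 TPM), Herpud1 (130 ± 9.41 TPM) and Sdf2l1 (128 ± 4.27 TPM). Each of these but Sdf2l1 overlapped the gene after it. Ddit3 lay apart below them at 80.2 ± 13.0 TPM. Trib3 was lowest, at 2.31 ± 0.704 TPM.

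Between the groups, 1 of the 10 genes was called higher in the libraries labelled L-DL KD and none lower, where 15.6% of all genes tested were called higher and 15.0% lower. The gene called was Atf4. Without the adjustment, Atf4 and Trib3 had a p under 0.05, both with the higher mean in this group. The groups overlapped in CPM in 10 of 10 genes, while over all genes tested 47.2% had groups that did not overlap. The median log2 fold change of the 10 genes was -0.04. The spread among the libraries labelled L-DL KD differed from gene to gene.

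**Figure D2:**
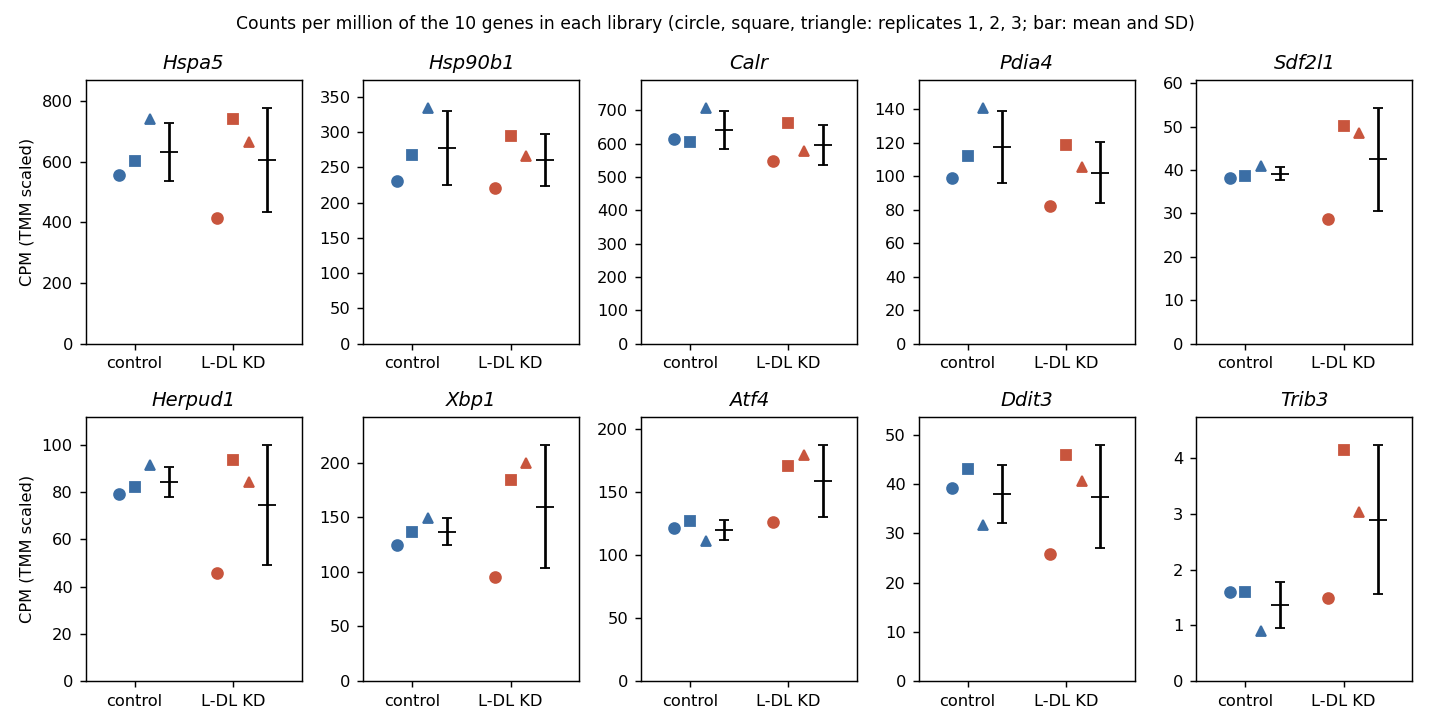
CPM of the 10 genes in each control library (blue) and each library labelled L-DL KD (red), with the mean and SD of the 3 libraries of a group as black bars and every axis starting at 0. In each panel L-DL KD replicate 1 (red circle) is the lowest of its group, as in Herpud1 at 45.8 CPM against 93.5 and 84.5 CPM and in Calr at 547 CPM against 662 and 577 CPM.

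Hspa5 (BiP) is the Hsp70 chaperone of the ER lumen, which also holds the sensors inactive. It stood at 555, 602 and 741 CPM in control replicates 1 to 3 and at 414, 741 and 664 CPM in L-DL KD replicates 1 to 3. L-DL KD replicate 1 was the lowest of all 6 libraries, and L-DL KD replicate 2 was level with control replicate 3, the highest control. The means were 633 ± 96.6 CPM and 606 ± 171 CPM (SD, n = 3), with a log2 fold change of -0.06 (standard error 0.21, 95% interval -0.54 to 0.41, adjusted p = 0.851, edgeR with Benjamini-Hochberg adjustment).

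Hsp90b1 (GRP94), the Hsp90 chaperone of the ER, measured 231, 268 and 334 CPM in the controls and 221, 295 and 266 CPM in the libraries labelled L-DL KD. Only L-DL KD replicate 1 fell outside the range of the controls, and by a small margin. The log2 fold change was -0.09 (standard error 0.15, 95% interval -0.44 to 0.25, adjusted p = 0.681, edgeR with Benjamini-Hochberg adjustment). Its transcripts share 273 identical bases with 1810014B01Rik on the opposite strand, a gene of 43 to 71 counts per library against 3752 to 5266 for Hsp90b1, and the sources do not say whether counting used strand.

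Calr encodes calreticulin, a calcium-binding chaperone of glycoproteins. It was at 614, 604 and 707 CPM in the controls and 547, 662 and 577 CPM in the libraries labelled L-DL KD. It varied least among the 10 genes within the L-DL KD group, with a coefficient of variation (CV, the SD over the mean) of 9.97%. Its log2 fold change of -0.11 (standard error 0.10, 95% interval -0.33 to 0.12) did not pass the test (adjusted p = 0.439, edgeR with Benjamini-Hochberg adjustment).

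Pdia4 (ERp72) is a protein disulfide isomerase. Control replicates held 98.6, 112 and 141 CPM, and L-DL KD replicates held 82.4, 118 and 106 CPM. Both L-DL KD replicates 2 and 3 lay within the range of the controls. The log2 fold change was -0.20 (standard error 0.16, 95% interval -0.57 to 0.17, adjusted p = 0.393, edgeR with Benjamini-Hochberg adjustment).

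Sdf2l1 is a small ER protein that works with BiP and its DnaJ partners. The controls lay close together at 38.1, 38.5 and 40.8 CPM (CV 3.76%), and the libraries labelled L-DL KD measured 28.8, 50.1 and 48.5 CPM (CV 27.9%). L-DL KD replicate 1 was thus below all controls, and replicates 2 and 3 above all of them. The log2 fold change over all libraries was 0.12 (standard error 0.19, 95% interval -0.32 to 0.55, adjusted p = 0.684, edgeR with Benjamini-Hochberg adjustment).

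Herpud1 encodes a membrane protein that helps assemble the complex for ER-associated degradation, in which misfolded proteins are returned to the cytosol. It was at 79.2, 82.2 and 91.5 CPM in the controls and at 45.8, 93.5 and 84.5 CPM in the libraries labelled L-DL KD. Relative to the mean of the controls, L-DL KD replicate 1 stood at -0.88 on the log2 scale, the lowest such value of the 10 genes in any library. The other two L-DL KD libraries lay within or just above the range of the controls, and the log2 fold change was -0.18 (standard error 0.23, 95% interval -0.70 to 0.35, adjusted p = 0.60, edgeR with Benjamini-Hochberg adjustment).

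Xbp1, the transcription factor that IRE1 activates, measured 124, 137 and 149 CPM in the controls. The libraries labelled L-DL KD measured 94.9, 184 and 199 CPM. As in Sdf2l1, L-DL KD replicate 1 was below all controls and the others above all of them. The log2 fold change was 0.22 (standard error 0.24, 95% interval -0.33 to 0.78, adjusted p = 0.530, edgeR with Benjamini-Hochberg adjustment).

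Atf4, the transcription factor of the PERK branch, was at 121, 127 and 111 CPM in the controls and at 127, 170 and 180 CPM in the libraries labelled L-DL KD. Among these, L-DL KD replicate 1 lay just below control replicate 2, and the other two lay above all controls. The means were 120 ± 8.14 CPM and 159 ± 28.3 CPM (SD, n = 3), with a log2 fold change of 0.41 (standard error 0.13, 95% interval 0.11 to 0.70, adjusted p = 0.045, edgeR with Benjamini-Hochberg adjustment). The call was lost without control replicate 1 (adjusted p = 0.114), control replicate 2 (adjusted p = 0.0844) or control replicate 3 (adjusted p = 0.148), all by edgeR. It was also lost without L-DL KD replicate 2 (adjusted p = 0.124) or L-DL KD replicate 3 (adjusted p = 0.115), and it held without L-DL KD replicate 1.

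Ddit3 (CHOP), a transcription factor induced by ATF4 that is known for promoting cell death in prolonged stress, measured 39.2, 43.2 and 31.6 CPM in the controls. It measured 25.8, 46.0 and 40.7 CPM in the libraries labelled L-DL KD, so that this group held both the lowest and the highest library. The log2 fold change was -0.02 (standard error 0.21, 95% interval -0.50 to 0.46, adjusted p = 0.952, edgeR with Benjamini-Hochberg adjustment), and it was 0.01 when libraries were scaled by their total counts alone. Its exons overlap those of Mars on the opposite strand over 68 bases, and another gene model that carries the symbol Ddit3 over 63 bases.

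Trib3, a pseudokinase induced by ATF4 and CHOP, rested on few reads. It had 26, 27 and 14 counts in the controls and 27, 74 and 51 counts in L-DL KD replicates 1 to 3, or 1.6, 1.59 and 0.889 CPM against 1.49, 4.15 and 3.04 CPM. Of the L-DL KD libraries, replicate 1 lay within the range of the controls and the other two above it. Its log2 fold change of 1.08 was the largest of the 10 genes (standard error 0.42, 95% interval 0.11 to 2.06), and it did not pass the test (adjusted p = 0.0895, edgeR with Benjamini-Hochberg adjustment).

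L-DL KD replicate 1 was the lowest library of its group in 10 of the 10 genes, as it was in 37.7% of all genes tested. It was the lowest of all 6 libraries in 8 of the 10, all but Atf4 and Trib3, and in 17.6% of all genes. Control replicate 3 was the highest control in 7 of the 10 genes, the exceptions being Atf4, Ddit3 and Trib3, and in 34.9% of all genes. The median CV of the 10 genes was 12.2% among the controls and 27.9% among the libraries labelled L-DL KD, against 8.80% and 12.9% over all genes tested. Both of these libraries also had the high choroid plexus markers, at 7792 CPM in L-DL KD replicate 1 and 7049 CPM in control replicate 3, and the part of choroid plexus tissue in this spread was not tested.

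**Figure D3:**
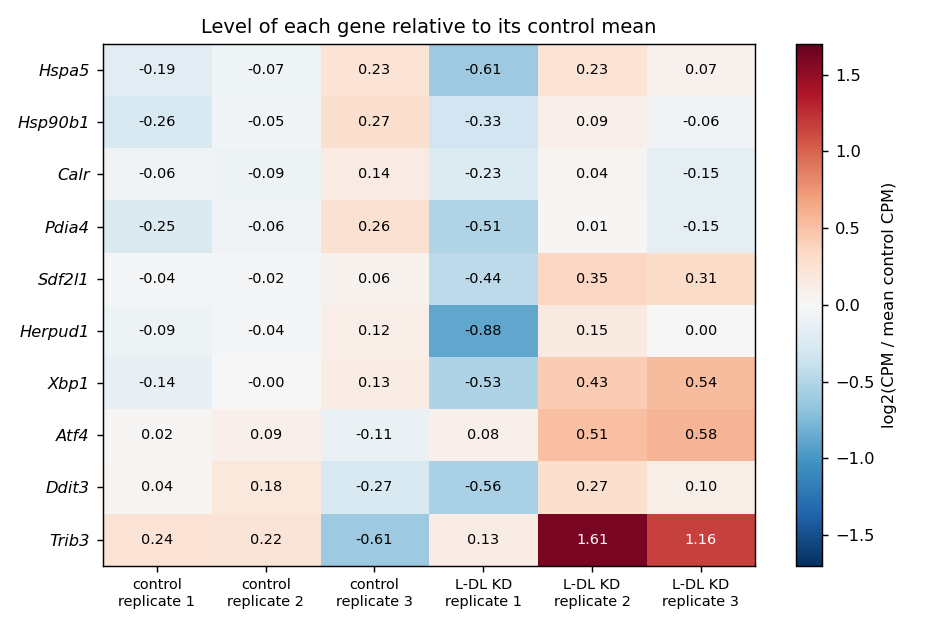
Level of each gene in each of the 6 libraries as log2 of its CPM over the mean CPM of the 3 controls, with blue below and red above that mean. The column of L-DL KD replicate 1 is blue in 8 genes and reaches -0.88 in Herpud1, and L-DL KD replicates 2 and 3 are both at 0.31 or above in Sdf2l1, Xbp1, Atf4 and Trib3.

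Both L-DL KD replicates 2 and 3 lay above all 3 controls in 4 of the 10 genes, Sdf2l1, Xbp1, Atf4 and Trib3, as they did in 30.5% of all genes tested. When L-DL KD replicate 1 was left out, these 4 genes were called higher and none lower, where 18.8% of all genes were called higher. The log2 fold changes without it were 0.33 (standard error 0.08) for Sdf2l1, 0.49 (0.09) for Xbp1, 0.55 (0.08) for Atf4 and 1.40 (0.33) for Trib3. Their adjusted p-values in edgeR's quasi-likelihood test were 0.00973, 0.00330, 0.000872 and 0.0116 in that order. The fit rests on L-DL KD replicates 2 and 3, in which these genes had been seen above all controls, so it gives no separate support. The other 6 genes did not pass in the same fit, with log2 fold changes of 0.15 for Hspa5, 0.02 for Hsp90b1, -0.05 for Calr, -0.06 for Pdia4, 0.08 for Herpud1 and 0.19 for Ddit3. When both libraries with high choroid plexus markers were left out, a setting chosen after the values were seen, the same 4 genes were called higher, where 15.5% of all genes were. In that setting the L-DL KD libraries were again replicates 2 and 3. The remaining controls still had more choroid plexus marker counts than these. There Hspa5 had a log2 fold change of 0.27 (adjusted p = 0.0530, edgeR with Benjamini-Hochberg adjustment). Leaving out any other single library left 0 of the 10 genes called.

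**Figure D4:**
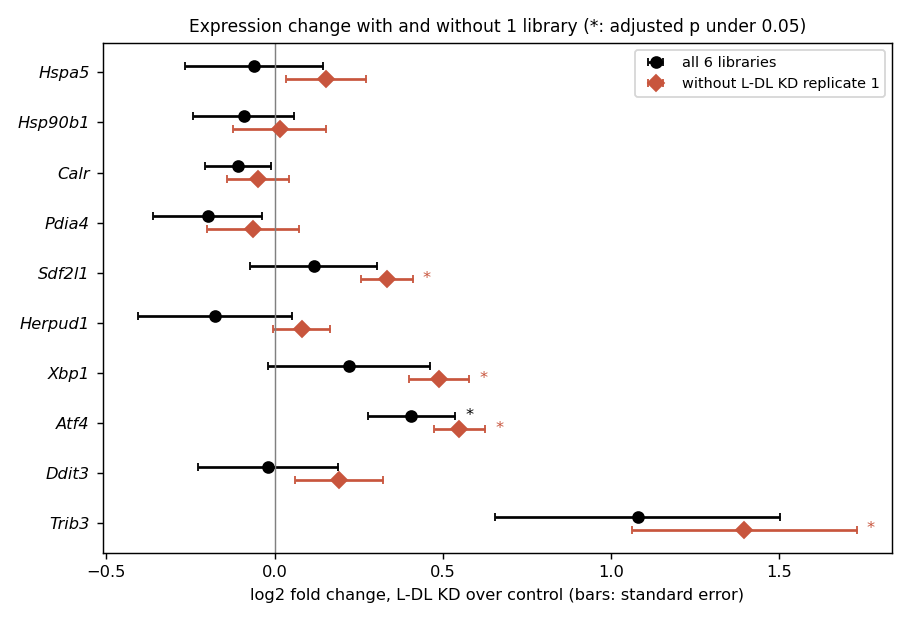
Log2 fold change of the libraries labelled L-DL KD over the controls with its standard error, for all 6 libraries (black circles) and without L-DL KD replicate 1 (red diamonds), and an asterisk at an adjusted p under 0.05 from edgeR. Atf4 carries an asterisk in both fits, and Sdf2l1, Xbp1 and Trib3 carry one only without that library.

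Around the 10 genes, 62 others of the same pathway were taken as 4 lists, and 20 of them (32.3%) were called higher and 4 (6.45%) lower, beside 15.6% and 15.0% of all genes, with a median log2 fold change of 0.11. Without control replicate 1, 2 or 3, 10 of the 62 genes were called higher, where 10.2 to 10.7% of all genes were. Without L-DL KD replicate 2 or 3, 13 of the 62 were, where 12.5 to 12.7% of all genes were. Without L-DL KD replicate 1, 26 of the 62 were, where 18.8% of all genes were. Of the 3 sensors, Ern1 (IRE1) rose from 26.6 ± 1.48 to 35.8 ± 3.22 CPM (SD, n = 3, log2 fold change 0.43, adjusted p = 0.0145 by edgeR). The call of Ern1 was lost without control replicate 2 (adjusted p = 0.0644 by edgeR). Atf6 fell from 97.1 ± 3.14 to 79.1 ± 1.75 CPM, by 0.29 on the log2 scale (adjusted p = 0.00975 by edgeR). Eif2ak3 (PERK) had a log2 fold change of 0.25 and did not pass (adjusted p = 0.167 by edgeR), with 28.0 CPM in L-DL KD replicate 1 and 36.4 and 37.5 CPM in the others against 28.0 to 29.3 CPM in the controls. Ern1 and Atf6 had groups that did not overlap, which none of the 10 genes had. Of the other 9 genes of sensors and eIF2α signalling, 2 rose, Atf6b, the relative of Atf6 (log2 fold change 0.27), and Eif2ak2 (PKR), an eIF2α kinase that responds to double-stranded RNA (0.61). Both calls were lost when any 1 library other than L-DL KD replicate 1 was left out, and that of Atf6 held without each library in turn.

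In this and the next list, the share of all genes tested was 15.6% higher and 15.0% lower. Of the 16 other ER chaperones and folding enzymes, 3 (18.8%) rose, 2 fell and 11 did not pass, with a median log2 fold change of -0.04. P4hb, a protein disulfide isomerase, rose by 0.50 on the log2 scale, Sil1, a nucleotide exchange factor of BiP, by 0.47, and Ppib, a prolyl isomerase, by 0.27. The oxidase Ero1a, which recharges disulfide isomerases, fell by 0.67, and the disulfide isomerase Pdia6 fell by 0.61. The calls of P4hb and Ero1a held without each library in turn. Pdia6 was lost without control replicate 1, 2 or 3, Ppib without any 1 control or L-DL KD replicate 2, and Sil1 without control replicate 1 or 2 or L-DL KD replicate 1 or 2. The translocon is the channel through which proteins enter the ER. Of the 16 genes of ER-associated degradation and of the translocon, 8 (50.0%) rose and 1 fell, with a median log2 fold change of 0.20. Without control replicate 3, 3 of the 16 rose, where 10.2% of all genes did. Without L-DL KD replicate 1, 9 of the 16 rose, where 18.8% of all genes did. Derl1 and Os9, which work in the export and recognition of misfolded proteins, rose by 0.36 and 0.29, and the translocon subunits Sec61a1 and Sec61b by 0.56 and 0.55. Of these 4 calls, that of Sec61b was lost without control replicate 3 (adjusted p = 0.0507 by edgeR), and the others held without each library in turn. The calls of Edem1 and Sec61g were lost when any library other than L-DL KD replicate 1 was left out. That of Vcp was lost without any 1 control or L-DL KD replicate 2, and that of Edem2 without control replicate 1 or 3 or L-DL KD replicate 3. Sel1l, the scaffold of the same degradation complex in which Herpud1 takes part, fell from 264 ± 14.1 to 147 ± 21.0 CPM (log2 fold change -0.84, adjusted p = 0.00101 by edgeR), and this call held without each library in turn.

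Of 18 known targets of ATF4 and CHOP, 6 (33.3%) rose, none fell and 12 did not pass, where 15.6% of all genes rose. Their median log2 fold change was 0.21. Bbc3 (PUMA), which promotes apoptosis, rose by 1.08 on the log2 scale. The transcription factor Atf5 rose by 0.59, the stress protein Sesn2 by 0.88 and the stress-induced regulator Nupr1 by 1.59. These 4 calls held without each library in turn. The calls of Cebpg and Slc3a2 were lost when any library other than L-DL KD replicate 1 was left out. Bbc3 and Sesn2 are also known targets of p53. In L-DL KD replicate 1, Nupr1 was at 107 CPM against 48.3 and 44.1 CPM in the other libraries of its group, the reverse order to the 10 genes. Over these 62 genes, L-DL KD replicate 1 was the lowest of its group in 42 (67.7%).

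**Figure D5:**
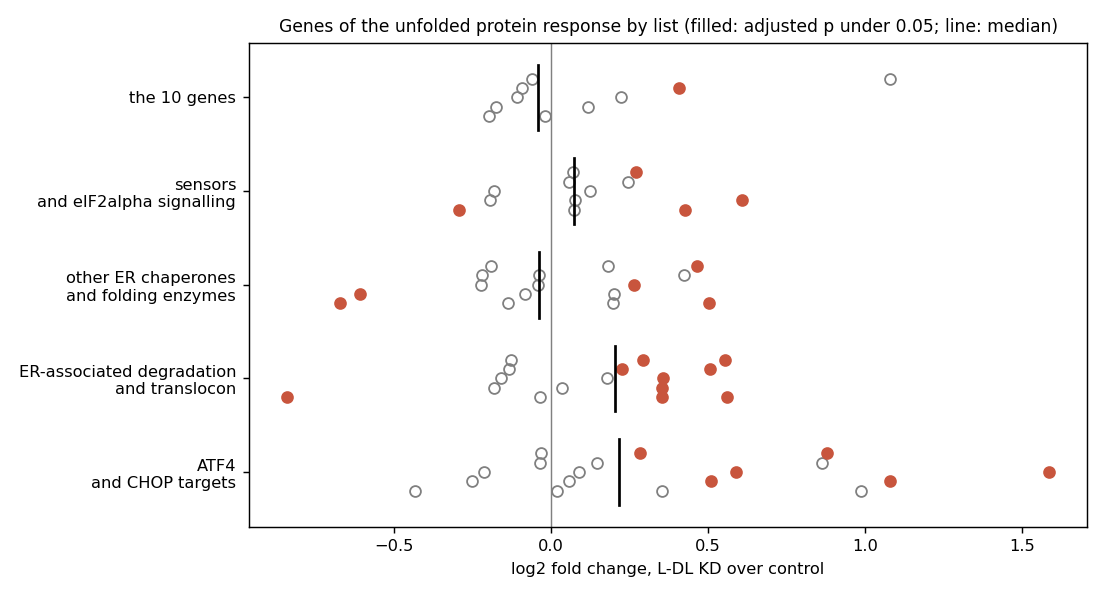
Log2 fold changes of the 10 genes and of the 4 lists around them, with 1 circle per gene, filled where the adjusted p from edgeR was under 0.05, and a black line at the median of each list. The 10 genes hold 1 filled circle (Atf4), and the list of degradation and translocon genes holds 8 to the right of 0 and Sel1l at the far left.

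The splicing table, which counts reads across splice junctions for the forms that include or skip a segment, listed 14 events in 6 of the 10 genes. Hspa5, Sdf2l1, Atf4 and Trib3 had none listed. Of the 14 events, 6 had enough reads of both forms to be tested, and none passed an adjusted p under 0.05 in edgeR's quasi-likelihood test or in limma, where 48 of 18829 events (0.255%) did in edgeR. One event had an unadjusted p under 0.05 in edgeR, the retention of intron 16 of Hsp90b1 (GRCm38, chr10:86691749-86692139, minus strand), an intron of 391 bases between coding exons. It was retained in 4.05, 2.46 and 2.74% of transcripts in the listed control libraries and in 1.63, 2.03 and 2.15% in the listed L-DL KD libraries. These percentages are the inclusion level (PSI), in which the junction counts of each form are divided by its effective length. The difference of the means was -1.15 percentage points, and it was -2.18 points from the junction counts without effective lengths. The groups did not overlap, and the difference did not pass the adjustment (quasi-likelihood test of edgeR across all events, unadjusted p = 0.0410, adjusted p = 0.36). The retained form had 32 to 89 reads per library against 968 to 1306 of the spliced form.

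Herpud1 had a pair of 3′ splice sites 3 bases apart at the start of coding exon 3 (GRCm38, chr8:94389521 and chr8:94389524, plus strand). The first of them was used in 90.1 ± 2.69% of transcripts in the controls and 92.5 ± 2.01% in the libraries labelled L-DL KD (SD, n = 3, adjusted p = 0.707 by edgeR). In Ddit3, a 48-base exon that lies in the untranslated region was included at 96.5 ± 1.73% and 96.2 ± 0.336% (adjusted p = 0.975 by edgeR). In Calr, the pair of exons 2 and 3, listed as mutually exclusive, gave a PSI of 53.7 ± 0.542% and 51.9 ± 1.77% (adjusted p = 0.890 by edgeR). Skipping of Calr exon 3 and of exon 2 was rare, at a PSI above 95% in every library. Most transcripts thus held both exons, so the PSI of the pair does not measure a choice between them. The 97-base coding exon 2 of Xbp1 was skipped in 1 read of all libraries, against 3231 that included it. The intron that IRE1 removes from the Xbp1 mRNA was not among the listed events, so the active form of Xbp1 was not measured.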

How the data were processed

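Gene counts and splicing junction counts of 3 control and 3 L-DL KD hippocampus libraries were used. The authors deposited unnormalised read counts of Ensembl genes, from oligo(dT)-selected RNA sequenced as 150 nt pairs (GRCm38), and rMATS junction counts with effective lengths. The submitters' notes name HISAT2 (version 2.1.0), Bowtie (version 1.1.2) and HTSeq (version 0.6.1). The deposited rMATS p-values, FDR and PSI differences were not used. The paper does not state whether each library came from a separate mouse, and p-values measure the spread between these samples.

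Genes that reached 10 counts in 3 or more libraries were scaled by TMM and tested by edgeR's quasi-likelihood test (edgeR 4.0.16, R 4.3.3), with Benjamini-Hochberg adjustment over all genes. Events with a mean of at least 20 junction counts and at least 1 of each form were tested by edgeR with an effect for each library. Alternatives were DESeq2 (version 1.42.0), limma (version 3.58.1, pseudocount 0.5), other scaling, filters, PSI without effective lengths, a replicate block and leaving out libraries. Both tests were checked on simulated data. TPM used exon lengths of GENCODE, and near-identical copies were sought with blastn (version 2.17.0) at 97% identity over 150 bases. The listed splicing libraries carry no replicate numbers, and which listed group is L-DL KD was taken from the direction of the differences in the study.

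The 10 genes and all lists were chosen with earlier results of these data known. Pathway genes were named as the 3 sensors and up to 4 genes higher and 4 lower per list by smallest p, and for each of the 10 genes the event with the smallest p. Nupr1 in single libraries, Calr exons 2 and 3 apart and the Xbp1 exon were chosen after their values were seen.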

Additional observations from a re-analysis of the deposited data

How the results depend on the processing

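Atf4 was the 1 gene of the 10 called higher with DESeq2 (adjusted p = 0.0123), with scaling by library size and with other filters on low counts. With a replicate block it had a log2 fold change of 0.39 (adjusted p = 0.0622, edgeR) and 0 of the 10 were called. The labels state no pairing by replicate number. Same-numbered libraries deviated with correlations of 0.06, 0.16 and -0.14 over genes, and libraries of unlike number with -0.22 to 0.16. With so few libraries these values cannot exclude a pairing. Leaving out 1 library at a time gave 0 to 4 of the 10 called higher, 10 to 26 of the 62 pathway genes higher, 1770 to 3236 genes higher and 1676 to 3241 lower in all, and a log2 fold change of Hnrnpdl of -0.13 to 0.15. In these fits the log2 fold change of 5 genes that did not pass with all libraries changed sign and ranged from -0.22 to 0.15 (Hspa5), -0.21 to 0.061 (Hsp90b1), -0.36 to 0.081 (Herpud1), -0.011 to 0.33 (Sdf2l1) and -0.19 to 0.19 (Ddit3). Ddit3 also changed sign with scaling by library size (0.0089), under which 56.1% of calls were higher against 51.0%. Without both libraries with high choroid plexus markers, 4 of the 10 were called higher, and Hspa5 (0.27), Hsp90b1 (0.16), Calr (0.017), Pdia4 (0.081), Herpud1 (0.14), Ddit3 (0.066) and Hnrnpdl (-0.16) changed sign. The cause was not tested. The log2 odds of the Ddit3 exon ranged from -0.62 to 0.14 with 1 listed library left out, and no splicing event of the 10 genes passed under any alternative. The PSI change of the Hsp90b1 intron was -1.15 points, and -2.18 points without effective lengths. Trib3 rests on 14 to 74 counts per library.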
